A study of Mus musculus with 8 samples.

Results

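Muscarinic and purinergic receptors are the surface proteins through which acetylcholine and extracellular nucleotides act on visceral organs. The 10 genes described here are 3 muscarinic receptors (Chrm1, Chrm2 and Chrm3), 3 nucleotide-gated ion channels of the P2X family (P2rx1, P2rx4 and P2rx7) and 4 G protein coupled receptors of the P2Y family (P2ry1, P2ry2, P2ry6 and P2ry14). They were chosen by gene symbol, all 10 were found, and the table they come from lists 21649 genes. RNA sequencing had been done on fluorescence-sorted mouse cells, labelled non-vascular smooth muscle cells, in 3 libraries of bladder, 3 of intestine and 2 of lung. All mice carried Cspg4-Dre, Acta2-CreERT and R26-GFP and had received tamoxifen at 0.75 mg per 10 g of body weight on 3 days. Cspg4 and Acta2 name the genes that drive the recombinases Dre and CreERT, tamoxifen activates CreERT, and the reporter makes green fluorescent protein. No group without tamoxifen or without a recombinase was analysed here, and the labels do not tie each library to its own mouse, so the spread behind every p-value is that of the libraries and may be technical.

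In bladder and gut, parasympathetic and enteric nerves release acetylcholine, and often ATP with it, onto smooth muscle. The M3 receptor couples to Gq and raises calcium through phospholipase C and inositol trisphosphate. The M2 receptor couples to Gi, lowers cyclic AMP and is known as the more abundant muscarinic receptor of smooth muscle, while M1 is mainly a receptor of neurons and glands. ATP opens P2X1, the channel behind the fast purinergic twitch of bladder and arteries. P2Y receptors respond to ADP, ATP, UTP, UDP or UDP sugars, depending on the member.

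Sequences upstream of 3 genes are shown because their RNA divided the organs in opposite ways: P2rx1 and Chrm2 had more RNA in intestine and lung than in bladder, and P2rx4 had most in bladder. They are bases 250 to 51 before the annotated start, from RefSeq promoters of build GRCm38.p6, which had entries for 8 of the 10 members (not Chrm1 and P2ry6). The window stops short of the start because an annotated first exon of P2rx1 reaches into the bases nearest to it. Capitals mark a GC box, GGGCGG on either strand.
P2rx1, chr11:72998895-72999094, + strand: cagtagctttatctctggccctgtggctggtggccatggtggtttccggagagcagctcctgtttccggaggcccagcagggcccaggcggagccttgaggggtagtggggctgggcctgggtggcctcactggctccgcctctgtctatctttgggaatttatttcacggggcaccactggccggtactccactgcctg
Chrm2, chr6:36387834-36388033, + strand: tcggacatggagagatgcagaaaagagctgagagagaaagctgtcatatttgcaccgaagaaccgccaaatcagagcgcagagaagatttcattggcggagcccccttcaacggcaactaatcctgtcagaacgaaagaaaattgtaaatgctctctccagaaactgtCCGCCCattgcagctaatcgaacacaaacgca
P2rx4, chr5:122707294-122707493, + strand: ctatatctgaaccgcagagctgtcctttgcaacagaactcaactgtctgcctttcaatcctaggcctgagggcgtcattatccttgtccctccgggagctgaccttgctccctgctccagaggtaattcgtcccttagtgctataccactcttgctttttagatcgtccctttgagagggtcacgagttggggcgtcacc
Both strands were searched for the CArG box, to which serum response factor binds in muscle genes, for the AP-1 site TGANTCA, for GGGCGG and for the E-box CANNTG, which is not marked above. The 8 members have 13 windows, since some have several starts. The CArG box was in 0 of the 13, against 1.2% of 32851 windows of the same length and position. An AP-1 site was in 3 of the 13 (of P2rx7 and P2ry14), against 5.6% of all windows, and a GC box in 5 (of Chrm2, P2rx7, P2ry1 and P2ry2), against 24.6%. An E-box was in 7 (of P2rx4, P2rx7, P2ry2 and P2ry14), against 59.0%. Windows of 1 gene can overlap. These are matches of letters in one short window and were not tested for use.

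Depth ranged from 9.72 to 13.62 M reconstructed reads per library, with less in bladder than elsewhere. Values below are normalized read counts, with mean ± SD over libraries. The 8 smooth muscle markers were above 0 in every library and summed to 18447 to 22403 in bladder, 31382 to 34047 in intestine and 32945 to 33415 in lung. Markers of other cells were also read: the 8 fibroblast markers summed to 56041 to 63320, 36950 to 39550 and 28068 to 31505 in the same order, so the receptors cannot be assigned to muscle cells from these libraries alone. In bulk RNA, fewer cells of a type and less RNA per cell cannot be told apart. By limma, genes differed between organs widely, and the share of calls that were higher depended on scaling. It was 55.2% for intestine against bladder (41.7% with quantile normalization and 81.4% with the deposited scaling undone), 46.7% for lung against bladder (58.5% with equal totals and 80.9% undone) and 40.3% for lung against intestine (59.5% with quantile normalization and 51.0% undone). Undoing the scaling leaves depth uncorrected, and bladder had less depth. The median log2 difference of all genes moved with it, from 0.06 to 0.46 for intestine against bladder. For lung against bladder it moved from 0 to 0.48.

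Receptor RNA differed among the 3 organs for all 10 members in limma's F test, in which 62.9% of the 18097 genes tested passed. P2rx1 and P2ry14 were far higher in intestine and lung than in bladder, Chrm1 and Chrm3 were read almost entirely in intestine, and P2ry1 was nearly missing from lung. Lung had the highest P2ry2 and P2ry6, and bladder the highest P2rx4 and P2rx7. Between intestine and bladder, 5 members were higher in intestine and 2 lower, where 51.9% of all genes passed (28.7% higher and 23.3% lower). Between lung and bladder, 5 were higher in lung and 3 lower, where 41.0% of all genes passed (19.2% higher and 21.8% lower). Between lung and intestine, 3 were higher in lung and 3 lower, where 39.5% of all genes passed (15.9% higher and 23.6% lower). These comparisons share libraries, and Chrm1 and Chrm3 met the filter on low values only through their intestine libraries. Their direction in the pairs with intestine was thus fixed by the filter, and the counts in those pairs support nothing. With the deposited scaling undone, which leaves depth uncorrected, the counts against bladder became 6 higher and 1 lower in intestine. In lung they became 5 higher and 1 lower.

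**Figure D1:**
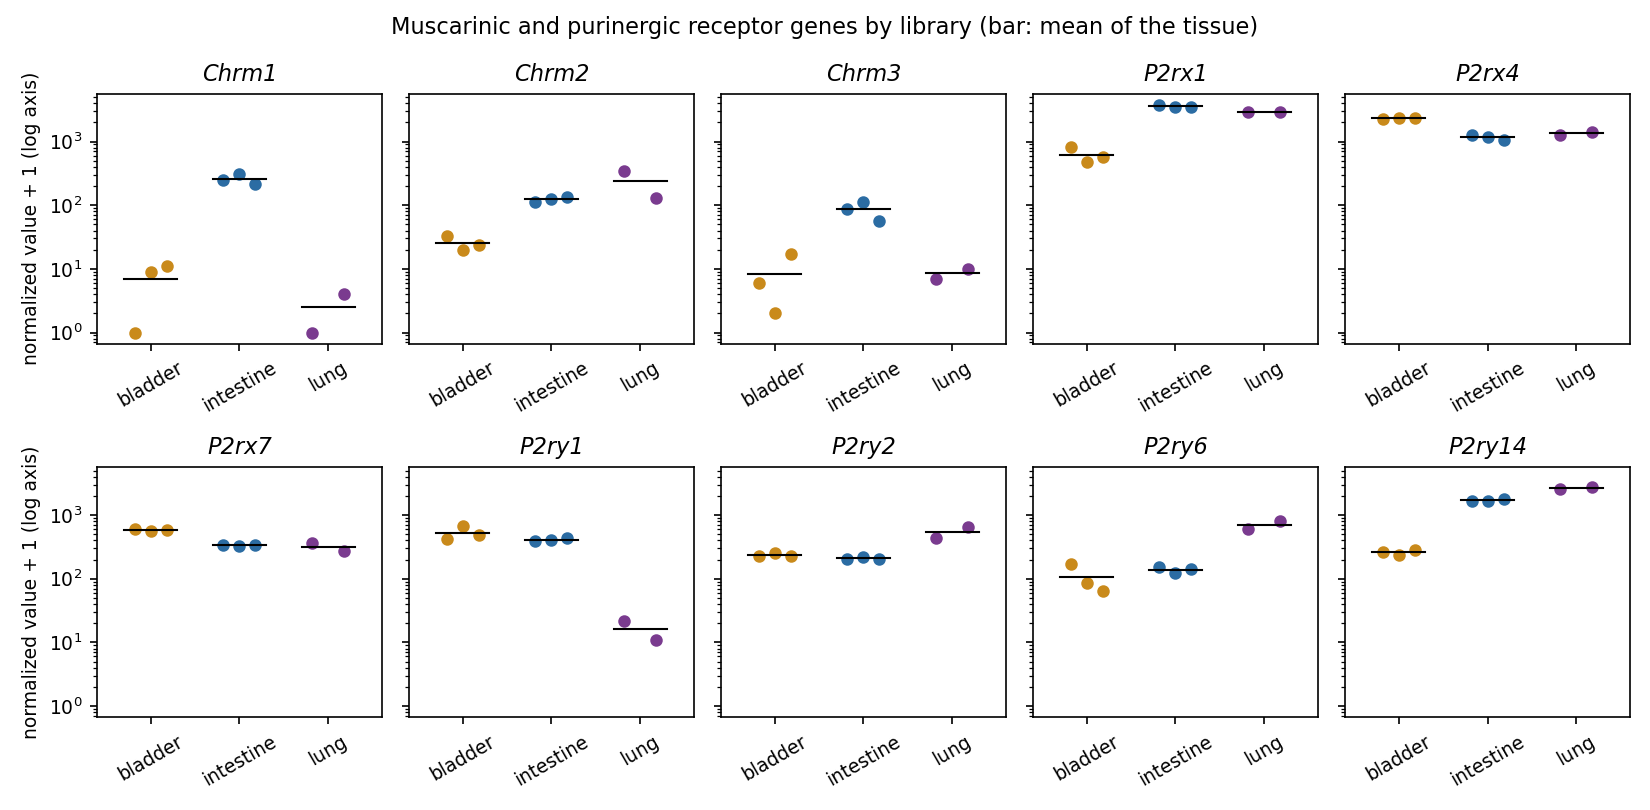
Normalized value plus 1 of each receptor gene on a log axis, 1 point per library, with a bar at the mean of each tissue (3 bladder, 3 intestine and 2 lung libraries). Chrm1 and Chrm3 are high in intestine alone, P2ry1 is low in lung, and P2rx1 and P2ry14 are low in bladder.

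The muscarinic genes were the least abundant members in bladder. Chrm3, which encodes the M3 receptor that drives contraction (chromosome 13, 9925522 to 10410883, build mm39), was at 5, 1 and 16 in the bladder libraries, 86, 113 and 55 in intestine, and 6 and 9 in lung. Every intestine library was above every other library, and bladder and lung overlapped. Its log2 difference from bladder was 3.80 (SE 0.71, adjusted p = 0.00157) in intestine and 0.51 (SE 0.79, adjusted p = 0.655) in lung. Lung lay below intestine by a log2 difference of -3.30 (SE 0.79, adjusted p = 0.00931). Chrm3 met the filter on low values only through intestine, so its direction in the pairs with intestine was fixed by the filter. A count of 0 allows up to 3 reads, a value of 2.47 to 3.81 depending on the library, so bladder library 2, at 1, was under that limit, and the other bladder and lung libraries were above it. The unnamed models Gm47405 and Gm47411 lie within Chrm3 on the same strand, at 6, 23 and 5 and at 3, 10 and 3 in intestine and 0 elsewhere, and their reads are not separable from those of Chrm3 where they overlap.

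Chrm2, which encodes the M2 receptor (chromosome 6, 36365019 to 36505349), was at 32, 19 and 23 in bladder, 111, 124 and 132 in intestine, and 349 and 127 in lung. Bladder was lowest with no overlap, while lung library 2 lay among the intestine values and lung library 1 above them. Chrm2 was higher than in bladder by a log2 difference of 2.29 (SE 0.38, adjusted p = 0.00076) in intestine and 3.08 (SE 0.42, adjusted p = 0.000395) in lung. The difference between lung and intestine, 0.78 (SE 0.42, adjusted p = 0.174), did not pass, and it rested on the lung libraries: it was 0.06 (adjusted p = 0.925) without lung library 1 and 1.51 (adjusted p = 0.0147) without lung library 2. Lung library 1, with the high Chrm2, also had 3080 in the sum of 3 markers of interstitial cells of Cajal, the pacemaker cells of gut muscle, against 1505 in lung library 2. That sum was 1046 to 1148 in bladder and 3276 to 4353 in intestine, and none of the 3 markers was at 0 in any library. The 3 did not move alike. Kit and Ano1 were higher than in bladder in both intestine and lung, Etv1 was lower in lung than in bladder, and Ano1 was lower in lung than in intestine. The part of these cells in the Chrm2 values was not tested. Reads of 2 genes could not be told apart at this locus: the noncoding gene 9330158H04Rik lies on the opposite strand, shares 2108 bases with the start of Chrm2, and the library kit does not mark strand. Its values were 1, 0 and 3 in bladder, 12, 32 and 36 in intestine, and 58 and 40 in lung, so the organs stood in the same order as for Chrm2.

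Chrm1, which encodes the M1 receptor (chromosome 19, 8641153 to 8660951), was at 0, 8 and 10 in bladder, 251, 311 and 218 in intestine, and 0 and 3 in lung. It was an intestine transcript in these libraries, at a mean of 260 ± 47.2 against 6 ± 5.29 in bladder and 1.5 ± 2.12 in lung. The log2 difference from bladder was 5.80 (SE 0.90, adjusted p = 0.000494), and lung was lower than intestine by -7.01 (SE 1.00, adjusted p = 0.00049). Both directions were fixed by the filter on low values, which Chrm1 met only through intestine. Lung against bladder gave -1.21 (SE 1.00, adjusted p = 0.372), but -2.31 (adjusted p = 0.0231) without bladder library 1, which has no Chrm1 read.

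Markers of several other cell types were highest in intestine, as Chrm1 and Chrm3 were. Intestine exceeded bladder in all 7 neuron markers. Their sum ranged over 551 to 699 in bladder, over 3321 to 3647 in intestine and over 753 to 1243 in lung. Snap25 was at 0 in every bladder library. Intestine also exceeded bladder in all 6 glial markers, with sums of 81 to 112, 703 to 854 and 198 to 278, and Sox10 was at 0 in both lung libraries. General epithelium markers summed to 3899 to 5951, 14751 to 15695 and 740 to 1196, with none at 0 throughout an organ, and 6 of 7 were higher in intestine than in bladder. Intestinal epithelium markers summed to 451 to 562, 5975 to 6668 and 279 to 560, with 5 of 6 higher in intestine than in bladder. Of these, Cdx1 and Cdx2 were at 0 in every bladder and lung library. Endothelium markers summed to 4395 to 5682, 10909 to 12822 and 6387 to 6954, 7 of 8 being higher and 1 lower in intestine than in bladder. The part of these cells in the Chrm1 and Chrm3 differences was not tested.

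The balance of M2 to M3 RNA was taken within each library, where scaling cancels apart from the pseudocount of 1. The log2 ratio of Chrm2 to Chrm3 was 2.46, 3.32 and 0.50 in bladder, 0.36, 0.13 and 1.25 in intestine, and 5.64 and 3.68 in lung. Chrm3 in bladder library 2, behind the ratio of 3.32, was at 1 and under the limit of 3 reads. The normalized value of Chrm2, not divided by length, exceeded that of Chrm3 in all 8 libraries. Per kb of the longest coding transcript the intestine levels overlapped, at 21.6 ± 1.87 for Chrm2 and 19.5 ± 6.69 for Chrm3. In the log2 ratio both lung libraries were above all others, and bladder overlapped intestine. Over all 560 ways to assign the libraries to organs, the exact permutation test gave p = 0.0464 (one-sided in F, smallest possible p = 0.00357). That call was lost, with exact p from 0.0667 to 0.114, when bladder library 1, any intestine library or lung library 1 was left out.

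The P2X genes held most of the receptor RNA. P2rx1, which encodes the fast ATP-gated channel of smooth muscle (chromosome 11, 72889929 to 72906026), was at 808, 473 and 572 in bladder, 3766, 3455 and 3545 in intestine, and 2919 and 2927 in lung. Bladder was lowest and intestine highest, with no overlap between organs. P2rx1 rose over bladder by a log2 difference of 2.57 (SE 0.16, adjusted p = 2.08e-06) in intestine and 2.28 (SE 0.18, adjusted p = 1.42e-05) in lung. Intestine and lung differed by -0.29 (SE 0.18, adjusted p = 0.227), which did not pass in the fit of all 8 libraries but did in a fit of these 2 organs (adjusted p = 0.0142). Some smooth muscle markers moved with P2rx1, 5 of 8 being higher and 1 (Cnn1) lower in intestine and 5 of 8 higher and 0 lower in lung than in bladder. The rest did not, and Des passed in no pair. Most mural cell markers moved with P2rx1, 5 of 7 being higher and 1 (Pdgfrb) lower in intestine and 5 higher and 0 lower in lung. Mural sums ranged over 9566 to 9971 (bladder), 24907 to 26188 (intestine) and 20568 to 24366 (lung), none of these markers being at 0. Their part in the P2rx1 difference was not tested. Read density is the same reads per nt of exon and so restates the difference. For P2rx1 it was 0.195 in bladder, 1.49 in intestine and 1.32 in lung. The 339 genes read most densely, at 1 read per nt or more on average, did not include P2rx1 and moved otherwise. Their median log2 difference from bladder was -0.40 in intestine and -0.42 in lung, against 0.06 and 0 for all genes. The effect of density on P2rx1 was not tested.

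P2rx4 encodes a channel found in epithelial, endothelial and immune cells (chromosome 5, 122845607 to 122867801). It was at 2253, 2384 and 2334 in bladder, 1246, 1184 and 1068 in intestine, and 1262 and 1428 in lung. It ran opposite to P2rx1, every bladder library being above all others. It was lower than in bladder by -0.997 (SE 0.08, adjusted p = 9.47e-06) in intestine and -0.79 (SE 0.09, adjusted p = 0.000133) in lung. With the deposited scaling undone, which leaves the lower depth of bladder uncorrected, the lung difference became -0.28 and no longer passed (adjusted p = 0.0717). Lung and intestine differed by 0.21 (SE 0.09, adjusted p = 0.103), or 0.30 (adjusted p = 0.0381) without lung library 1.

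P2rx7, whose channel needs high ATP and is best known from macrophages, lies 16.1 kb from P2rx4 (chromosome 5, 122781974 to 122829495). Its values were 594, 557 and 580 in bladder, 335, 330 and 340 in intestine, and 360 and 276 in lung. Bladder was highest without overlap, and the lung libraries lay on either side of intestine. The log2 difference from bladder was -0.78 (SE 0.12, adjusted p = 0.0006) in intestine and -0.87 (SE 0.14, adjusted p = 0.000965) in lung. Neither passed with the deposited scaling undone, which leaves the lower depth of bladder uncorrected (-0.39, adjusted p = 0.0544, and -0.36, adjusted p = 0.103). Macrophage and leukocyte markers, also highest in bladder, summed to 5423 to 9723 there, 1642 to 1967 in intestine and 2262 to 2443 in lung, with none of 10 at 0 throughout an organ. Of these, 8 were lower in intestine and 7 in lung than in bladder. Bladder library 1 held 9723 of that sum against 5423 and 5663 in the other bladder libraries, while P2rx7 was at 594 there against 557 and 580. Urothelium markers also summed highest in bladder, at 5768 to 7673, against 575 to 636 in intestine and 131 to 250 in lung. Of these 6, 5 were lower and 1 higher in intestine than in bladder, and all 6 were lower in lung. Mesothelium markers summed to 1587 to 3123, 340 to 637 and 331 to 649, 3 of 4 being lower in intestine and 4 in lung. Fibroblast sums were highest in bladder too, and general epithelium sums in intestine. The part of these cells in the P2rx7 and P2rx4 differences was not tested.

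**Figure D2:**
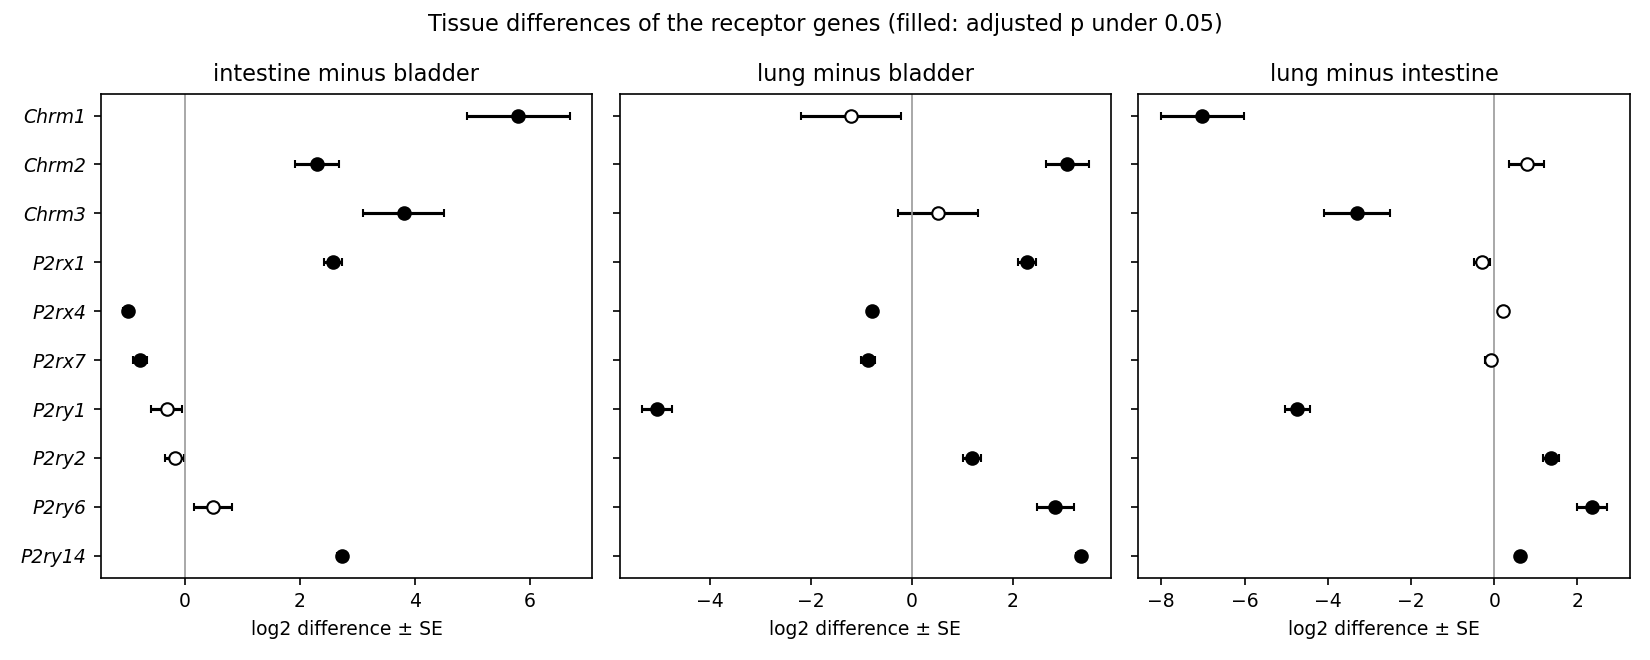
Log2 difference ± SE (limma, on normalized value plus 1) of each receptor gene in the 3 tissue pairs, with filled points where the adjusted p is under 0.05. Chrm1 and Chrm3 lie to the right for intestine minus bladder and to the left for lung minus intestine, P2ry1 lies far to the left in both lung pairs, and P2ry6, P2ry2 and P2ry14 lie to the right there.

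Among P2Y genes, P2ry1 separated lung from the other organs. P2ry1 encodes a Gq-coupled ADP receptor that, in gut, acts in inhibitory transmission through interstitial cells positive for PDGFRA (chromosome 3, 60910216 to 60916403). It was at 419, 662 and 493 in bladder, 395, 403 and 437 in intestine, and 21 and 10 in lung. Bladder and intestine overlapped, and both lung libraries were far below. Lung was lower than bladder by a log2 difference of -5.05 (SE 0.30, adjusted p = 2.87e-06) and lower than intestine by -4.73 (SE 0.30, adjusted p = 3.02e-06). Intestine against bladder gave -0.32 (SE 0.27, adjusted p = 0.345). Pdgfra itself was at 11039, 11091 and 9933 in bladder, 5947, 6921 and 6428 in intestine, and 1203 and 1244 in lung. All 8 fibroblast markers, Pdgfra among them, were lower in lung than in bladder. Against intestine, lung had 4 of the 8 lower and 1 higher, with none at 0 in any library. Their part in the P2ry1 difference was not tested. Gm37035, on the opposite strand across the start of P2ry1, was at 0 in lung and at 25 or less elsewhere, and its reads cannot be told from those of P2ry1 in the shared bases.

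P2ry14, a Gi-coupled receptor for UDP-glucose (chromosome 3, 59021276 to 59061039), ran the other way. Its values were 260, 235 and 277 in bladder, 1685, 1663 and 1771 in intestine, and 2537 and 2712 in lung. The organs stood apart in that order, and P2ry14 alone among the members passed in all 3 pairs. It was higher than in bladder by a log2 difference of 2.73 (SE 0.09, adjusted p = 1.12e-07) in intestine and 3.35 (SE 0.10, adjusted p = 6.65e-08) in lung. Lung exceeded intestine by 0.62 (SE 0.10, adjusted p = 0.000872). P2ry14 lies within Med12l, which is on the opposite strand and ranged over 11 to 28 (bladder), 34 to 62 (intestine) and 57 to 63 (lung). Reads of the pair cannot be told apart without strand, but Med12l was read at far lower values in every library.

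P2ry6, a UDP receptor (chromosome 7, 100586837 to 100623856), was at 170, 86 and 62 in bladder, 149, 122 and 140 in intestine, and 607 and 807 in lung. Both lung libraries were above all others, and bladder overlapped intestine. Lung was higher than bladder by 2.84 (SE 0.37, adjusted p = 0.00028) and than intestine by 2.35 (SE 0.37, adjusted p = 0.000886) on the log2 scale. Gm44545, on the opposite strand within P2ry6, was at 10, 0 and 1 in bladder, 0, 0 and 2 in intestine, and 1 and 3 in lung. Its reads cannot be told from those of P2ry6 in the shared bases. P2ry6 is known from macrophages, whose summed markers were at 5423 to 9723 in bladder, 1642 to 1967 in intestine and 2262 to 2443 in lung. In lung 7 of the 10 were lower and 0 higher than in bladder, and 1 was higher and 1 lower than in intestine. Within bladder, library 1 had both the highest P2ry6 and the highest macrophage sum, and without it P2ry6 was higher in intestine than in bladder (0.89, adjusted p = 0.0134, against 0.49 with SE 0.33 and adjusted p = 0.244 over all libraries). P2ry2, a receptor for ATP and UTP found in epithelium and endothelium, lies 21.9 kb from P2ry6 (chromosome 7, 100645775 to 100662073). It was at 228, 255 and 224 in bladder, 201, 221 and 200 in intestine, and 442 and 652 in lung. Lung was again highest without overlap, by 1.19 (SE 0.19, adjusted p = 0.000877) over bladder and 1.37 (SE 0.19, adjusted p = 0.000377) over intestine. Intestine against bladder gave -0.18 (SE 0.17, adjusted p = 0.388), and -0.67 (adjusted p = 0.00901) with quantile normalization. Lung epithelium markers summed to 2337 to 2392 in lung against 99 to 161 in bladder and 111 to 129 in intestine, none at 0 throughout an organ. Of these, 5 of 6 were higher in lung than in either. General epithelium markers were lowest in lung, with 6 of 7 lower and 1 higher than in bladder and all 7 lower than in intestine. Endothelium markers summed to 6387 to 6954 in lung, between 4395 to 5682 in bladder and 10909 to 12822 in intestine. Against bladder 5 of 8 were higher and 2 lower in lung, and against intestine 0 were higher and 4 lower. The part of these cells and of macrophages in the P2ry2 and P2ry6 differences was not tested.

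**Figure D3:**
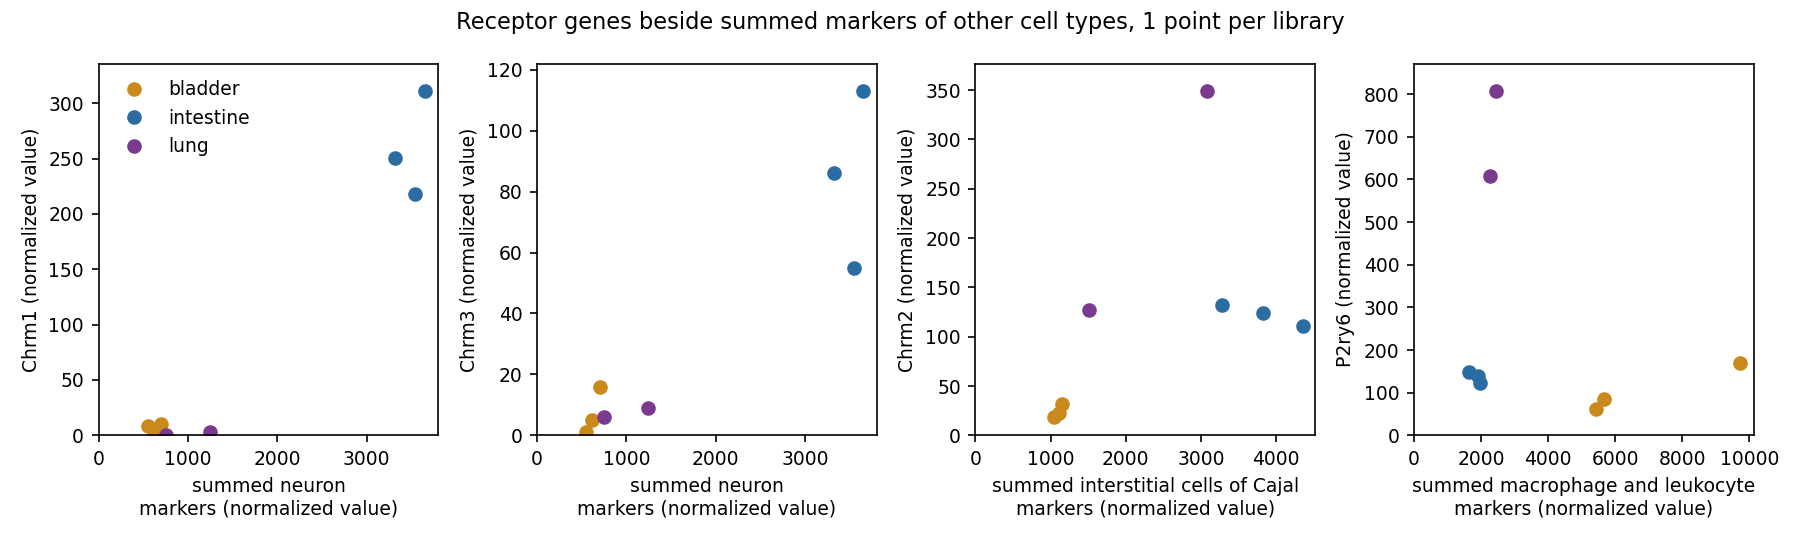
Normalized value of 4 receptor genes against the summed normalized value of marker genes of another cell type, 1 point per library. The intestine libraries stand apart for Chrm1 and Chrm3 at neuron sums of 3321 to 3647, lung library 1 has the highest Chrm2, and P2ry6 is highest in the lung libraries at macrophage sums of 2262 and 2443.

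A channel, P2rx1, was also compared with a G protein coupled receptor, P2ry2, within libraries. The log2 ratio of P2rx1 to P2ry2 was 1.82, 0.89 and 1.35 in bladder, 4.22, 3.96 and 4.14 in intestine, and 2.72 and 2.16 in lung. No organs overlapped. The exact permutation test over 560 assignments gave p = 0.00714 (one-sided in F), where the smallest possible p was 0.00357. This order is that of 1 pair of genes: summed per kb of exon, the P2X genes held 72.7% ± 3.17 of the members' level in bladder, 78.9% ± 0.932 in intestine and 67.15% ± 2.21 in lung. Per kb of the longest coding transcript they held 76.4% ± 1.37, 65.6% ± 1.27 and 51.3% ± 1.68, so that bladder and intestine changed places.

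Levels were compared between genes per kb of exon. In bladder, P2rx4 was the most abundant member at 331 ± 9.41 normalized counts per kb, followed by P2rx1 at 235 ± 65.6 and P2ry1 at 122 ± 29.0. P2ry1 overlapped P2rx7 (96.7 ± 3.13), P2ry2 (60.0 ± 4.29) overlapped P2ry6 (36.7 ± 19.6), and P2ry6 overlapped P2ry14 (23.3 ± 1.91). The muscarinic genes were far below, with Chrm2 at 4.08 ± 1.10, and Chrm3 (1.17 ± 1.24) and Chrm1 (0.925 ± 0.816) overlapping. In intestine P2rx1 stood at 1367 ± 61.0, with P2rx4 (166 ± 12.9) and P2ry14 (154 ± 5.16) overlapping below it, then P2ry1 at 95.9 ± 5.20. P2rx7, P2ry2, P2ry6 and Chrm1 followed at 56.1 ± 0.838, 52.8 ± 3.02, 47.5 ± 4.76 and 40.1 ± 7.27, each overlapping the next, and Chrm2 (20.2 ± 1.75) and Chrm3 (13.5 ± 4.64) came last without overlap. In lung P2rx1 was again first at 1114 ± 2.16, followed by P2ry6 (245 ± 49.0) and P2ry14 (237 ± 11.2), which overlapped, P2rx4 (192 ± 16.7) and P2ry2 (139 ± 37.8). P2rx7 (53.3 ± 9.95) overlapped Chrm2 (39.3 ± 25.9), and P2ry1, Chrm3 and Chrm1 were at 3.61 ± 1.81, 1.20 ± 0.339 and 0.231 ± 0.327. Dividing by the longest coding transcript instead, an alternative chosen after seeing the data, kept P2rx4 first in bladder and P2rx1 first in intestine and lung, and placed P2ry14 second in intestine and lung.

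P2rx1 held 25.6% ± 5.71 of the members' summed level per kb in bladder, 67.9% ± 0.978 in intestine and 55.05% ± 2.07 in lung. P2rx4 held 36.4% ± 2.97, 8.24% ± 0.504 and 9.45% ± 0.453. The muscarinic genes together held 0.680% ± 0.202, 3.67% ± 0.628 and 2.04% ± 1.33. The P2Y share was largest in lung, at 30.8% ± 3.54, against 26.7% ± 3.30 in bladder and 17.4% ± 0.781 in intestine, and lung overlapped bladder within the SDs. These shares depend on the length used. By the longest coding transcript P2rx1 held 15.4% ± 3.83, 48.8% ± 0.914 and 34.7% ± 1.74 in bladder, intestine and lung, P2rx4 53.7% ± 3.05, 14.6% ± 0.926 and 14.7% ± 0.516, and P2ry14 6.49% ± 0.595, 23.3% ± 1.07 and 31.3% ± 0.156. The P2Y share was then 23.2% ± 1.501 in bladder, 31.6% ± 1.34 in intestine and 47.4% ± 2.54 in lung, so that bladder and intestine changed places. P2ry14 had held 2.56% ± 0.266, 7.67% ± 0.383 and 11.7% ± 0.0905 by the exon union. The summed level itself was 911 ± 53.3 per kb in bladder, 2014 ± 63.4 in intestine and 2024 ± 79.8 in lung.

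**Figure D4:**
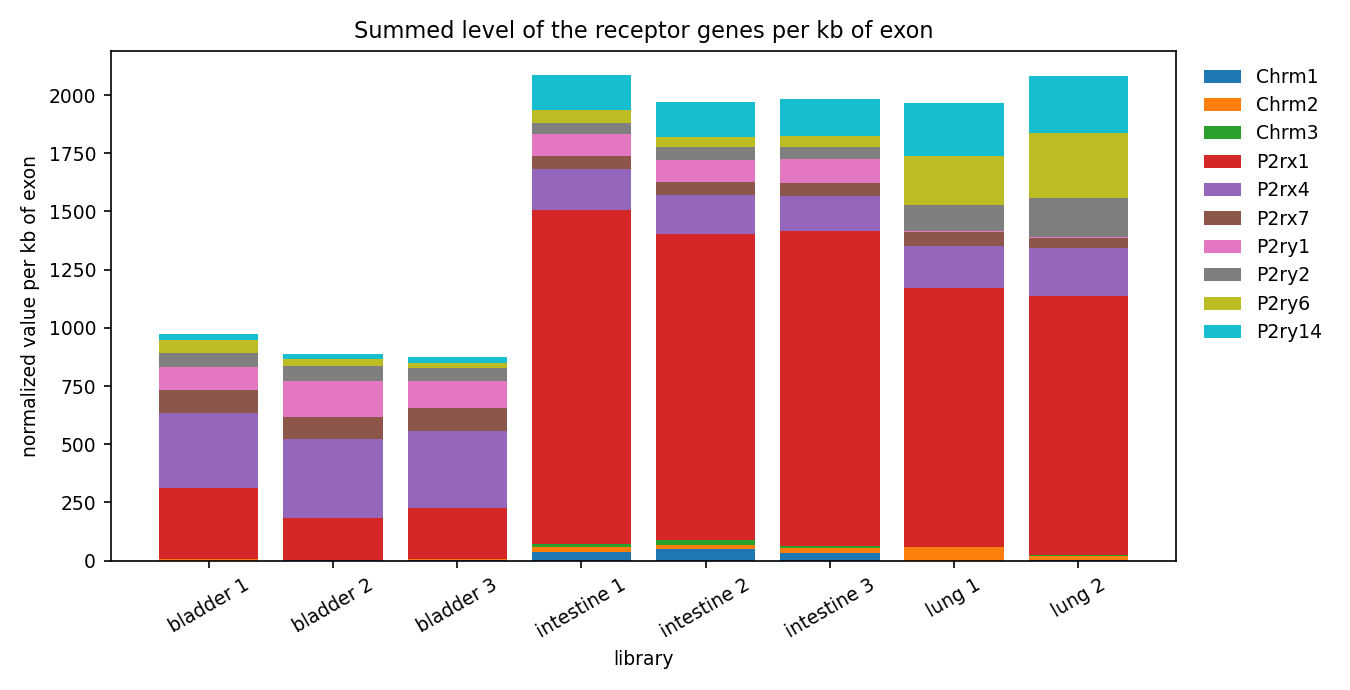
Stacked normalized values per kb of exon of the 10 receptor genes in each library (colours: genes). The bars reach 874 to 972 in bladder and 1968 to 2086 in intestine and lung, and the P2rx1 segment accounts for most of the taller bars.

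The genes whose pattern over the 8 libraries lay nearest to each member were found by the root mean square distance of log2 values centred on their own mean. Epas1, an oxygen-sensitive transcription factor, was nearest to P2rx1 (0.11), and Kcnj8, a potassium channel of mural cells, to P2ry14 (0.15), followed by Lmod1 and S100b (both 0.16). Kit, the receptor of interstitial cells of Cajal and mast cells, was nearest to Chrm2 (0.21), at 89.3 ± 30.01 (bladder), 368 ± 59.6 (intestine) and 704 ± 440 (lung). Kit is also 1 of the 3 markers summed beside Chrm2 above, so the 2 observations are not separate. Hand2os1 (0.30), Dpp4 (0.30) and the SK3 potassium channel gene Kcnn3 (0.33) were nearest to P2ry1, Kcnn3 being at 2079 ± 129, 1270 ± 215 and 41.5 ± 7.78. Sult1c2 (0.57) was nearest to Chrm1, H2-Ob (0.27) to Chrm3, Mmp9 (0.19) to P2ry6, and the mitotic kinase gene Mastl (0.11) to P2ry2. The smallest distances were those of Cybc1 to P2rx4 (0.045) and of Pcyox1 to P2rx7 (0.057). The search left out those of the 18097 tested genes with provisional symbols, such as Gm numbers, Rik, LOC and clone names. Being chosen among so many genes, these are descriptions with no test.

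Of the other receptors of these families, 8 of 10 were in the table and 7 were tested. In intestine against bladder 4 were higher and 2 lower, with a median log2 difference of 1.04 (0.06 for all genes, of which 51.9% passed). In lung against bladder 1 was higher and 2 lower (median -0.33, with 41.0% of all genes passing), and in lung against intestine 1 was higher and 3 lower (median -0.77, with 39.5% passing). Chrm4 and P2ry10 met the filter on low values only through intestine and P2ry13 only through bladder, so the counts and medians support nothing. P2rx2, a channel of enteric and sensory neurons, was at 15, 5 and 19 in bladder, 398, 434 and 560 in intestine, and 2 and 0 in lung. It was higher in intestine than in bladder and lung, and lower in lung than in bladder (log2 difference -2.84, adjusted p = 0.00543). Of the 7 neuron markers, whose sums are given above, 7 were higher in intestine than in bladder, whereas lung against bladder gave 2 higher and 1 lower. P2ry10, a lymphocyte receptor, was at 0.333 ± 0.577, 54.7 ± 12.5 and 0, at least 21.6-fold lower in lung than in intestine. P2rx5, another ATP-gated channel, was highest in lung at 427 ± 126, against 35.3 ± 3.79 in bladder and 75.7 ± 20.5 in intestine. P2ry13, a receptor of myeloid cells, was at 43, 20 and 15 in bladder, highest in the library with the highest macrophage sum, and at 0 to 6 elsewhere.

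Genes for making and breaking down acetylcholine had their highest means in intestine, except Colq. Of 6 tested, 5 were higher and 0 lower in intestine than in bladder (median 5.71), where 51.9% of all genes passed (median 0.06). In lung against bladder 1 was higher and 2 lower (median 0, with 41.0% of all genes passing), and all 6 were lower in lung than in intestine (median -4.35, with 39.5% passing). Chat, Slc18a3 and Slc5a7 met the filter on low values only through intestine, so their direction was fixed by it and these counts and medians support nothing. Slc18a3, the vesicular acetylcholine transporter, was at 258, 287 and 205 in intestine and 0 in every bladder and lung library, at least 69.1-fold higher than in bladder and at least 98.6-fold higher than in lung. Slc5a7, the choline transporter, was at 89, 73 and 81 in intestine and 0 elsewhere, at least 22.4-fold and 31.9-fold higher. Chat, the synthetic enzyme, was at 33, 23 and 45 and at 0 elsewhere, at least 13.3-fold higher than in lung. Ache, which degrades acetylcholine, was at 4.33 ± 0.577 (bladder), 1306 ± 64.8 (intestine) and 105 ± 11.3 (lung). Bche, butyrylcholinesterase, was at 176 ± 42.4, 519 ± 68.2 and 78 ± 48.1, and Colq, the collagen tail that anchors Ache, at 179 ± 23.4, 138 ± 67.3 and 18 ± 9.90. The neuron sums above were also highest in intestine, as these genes except Colq were. From bladder to lung the neuron sums rose, while Bche and Colq were lower in lung than in bladder. The part of neurons was not tested.

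Genes that release, degrade or take up nucleotides were divided between the organs. Of 13 tested, 4 were higher and 7 lower in intestine than in bladder (median -0.58), 2 higher and 8 lower in lung than in bladder (median -0.49), and 3 higher and 5 lower in lung than in intestine (median 0.18). Of all genes 28.7% were higher and 23.3% lower in the first pair (median 0.06), 19.2% and 21.8% in the second (median 0), and 15.9% and 23.6% in the last (median -0.04). Entpd8 met the filter only through intestine. Nt5e, which makes adenosine from AMP, was at 717 ± 215 (bladder), 167 ± 46.5 (intestine) and 621 ± 222 (lung). Entpd2, an ATP-degrading ectoenzyme, was at 2736 ± 192, 1514 ± 93.4 and 602.5 ± 151, and Entpd3 at 92.3 ± 35.8, 158 ± 53.4 and 0, at least 36.4-fold lower in lung than in bladder. Slc17a9, the vesicular nucleotide transporter, was at 184 ± 7.81, 532 ± 60.9 and 90.5 ± 40.3. Entpd8, an ectoenzyme of epithelium, was at 1.33 ± 2.31, 347 ± 34.8 and 1 ± 1.41, beside epithelial sums that were also highest in intestine. Ada, which degrades adenosine, was at 113 ± 21.1, 233 ± 5.29 and 369.5 ± 103. Of 3 adenosine receptors tested, Adora2a was higher than in bladder in intestine (22 ± 3.46 against 86 ± 25.6) and lung (187 ± 129), and Adora2b was lower in lung (46.5 ± 6.36) than in bladder (186 ± 20.0) and intestine (146 ± 61.2).

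Receptor signals pass to G proteins, phospholipase C, calcium release and channels. Of 26 such genes tested, 11 were higher and 4 lower in intestine than in bladder (median 0.14), 9 higher and 6 lower in lung than in bladder (median 0.05), and 4 higher and 7 lower in lung than in intestine (median -0.01). Of all genes 51.9%, 41.0% and 39.5% passed in these pairs, shares near which the list's counts lay in the first and the last pair. Trpc4, a cation channel opened through muscarinic receptors, was at 15, 34 and 10 in bladder, 108, 136 and 124 in intestine, and 6 and 8 in lung. The related channel gene Trpc6 was at 39.7 ± 4.93, 236 ± 81.0 and 341 ± 24.0. The inositol trisphosphate receptor gene Itpr3 was at 427 ± 76.2, 988 ± 125 and 61 ± 18.4, and Gnao1, the Go subunit, at 477 ± 48.0, 740 ± 53.4 and 273 ± 45.3. Kcnj3, a channel subunit opened by Gi-coupled receptors, was not read in bladder and reached 13 ± 4 in intestine and 14 ± 2.83 in lung, at least 3.59-fold and 3.87-fold higher. Plcb2, a phospholipase C, was at 3.67 ± 3.21, 35 ± 6.56 and 24.5 ± 4.95, and Kcnj5 was at 44 and 0 in lung against 123 ± 31.2 in bladder.

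Of 11 genes that end receptor signalling, 5 were higher and 2 lower in intestine than in bladder (median 0.35), 8 higher and 1 lower in lung than in bladder (median 0.58), and 5 higher and 4 lower in lung than in intestine (median -0.16). Of all genes 51.9%, 41.0% and 39.5% passed in these pairs. Rgs4, which shortens Gq and Gi signals, was at 359, 302 and 363 in bladder, 4668, 3870 and 4190 in intestine, and 2393 and 1231 in lung. Rgs5, a related gene and pericyte marker, was at 293 ± 45.4, 4203 ± 189 and 626.5 ± 276. Grk3, a kinase that desensitises G protein coupled receptors, was at 67 ± 14.7, 993 ± 82.3 and 154.5 ± 71.4, and Rgs16 was highest in lung at 751.5 ± 401. Rgs5 is itself 1 of the 7 mural markers, of which 1 was higher and 1, Rgs5, lower in lung than in intestine. The part of mural cells was not tested.

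**Figure D5:**
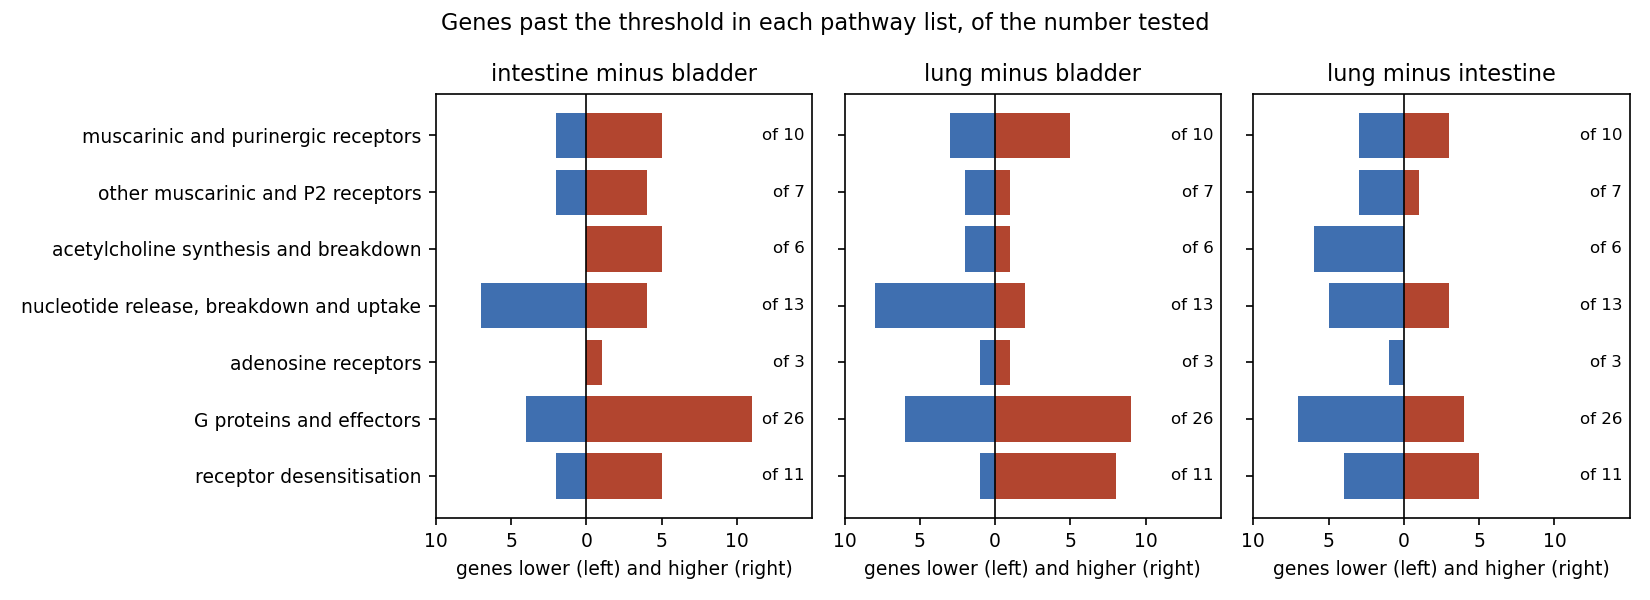
Number of genes past the threshold (adjusted p under 0.05) that were higher (right) or lower (left) in the first-named organ, for the receptors and 6 related lists, with the number tested at the right. The acetylcholine list has 5 higher genes for intestine minus bladder and 6 lower genes for lung minus intestine. Of all genes 28.7% were higher in the first of these pairs and 23.6% lower in the second. These counts support nothing, since Chat, Slc18a3 and Slc5a7 met the filter on low values only through intestine. So did Chrm1 and Chrm3 among the receptors.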

How the data were processed

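The submitters' processing notes name STAR 2.7.10a, DESeq2 1.36.0, featureCounts 2.0.4, Trimmomatic 0.39, Picard 3.0.0 and build mm39 without their roles. For annotation, strand setting and filters the sources used here give nothing. Per the labels' protocols at most 10 ng of RNA went into SMART-Seq v4, a kit that does not mark strand. The deposited values were treated as a score: read counts scaled per library and rounded to whole numbers, as read from the spacing of low values. That spacing gave the value of 1 read (0.822 to 1.27) and so the reconstructed reads and depth, where amplified reads are not independent molecules and limits cover counting error only. Folds against an organ at 0 use the mean of its libraries' limits of 3 reads.

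The 18097 of 21649 genes that reached 10 in 2 or more libraries were fitted with limma 3.58.1 (R 4.3.3, intensity trend) on log2(value + 1), which understates changes of low genes. All 8 libraries entered 1 fit, with Benjamini-Hochberg adjustment over all genes and a threshold of 0.05. The fit was tested on simulated data. Exon lengths, the union of all exons, came from GENCODE M21 (96.8% of genes matched). The members, gene lists, markers and tests were chosen with earlier results of these data known. Named genes were the members, genes overlapping them, up to 3 called genes per list and pair with the largest difference, and the 3 most alike genes per member without a provisional symbol, of which some are not printed. The level of 1 marker gene is not reported here.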

Additional observations from a re-analysis of the deposited data

How the results depend on the processing

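Alternatives were equal totals, quantile normalization, the deposited scaling undone, a pseudocount of 8, no filter, a filter at 50, fits of 2 organs, a replicate block and leaving out each library. Of 398 refits of the 30 member differences, 380 kept direction and side of the threshold, 8 gained and 3 lost the call, and 7 turned direction, all of them in differences that had not passed. With the deposited scaling undone, and depth so left uncorrected, P2ry1 and P2ry2 (intestine minus bladder) became 0.07 and 0.21 and P2rx7 (lung minus intestine) 0.03. Quantile normalization gave -0.25 for P2ry6 (intestine minus bladder) and 0.17 for P2rx7 (lung minus intestine). Over single libraries left out, P2rx7 (lung minus intestine) ranged from -0.28 to 0.10, positive without lung library 2, and Chrm3 (lung minus bladder) from -0.27, without bladder library 2, to 1.27. The cause of the turns in the settings other than the undone scaling was not tested. The fit of lung and bladder alone tested 8 members, since Chrm1 and Chrm3 did not meet its filter. Numbers of members and of genes called stayed within 1.5 times in every alternative. The spread between organs of the Chrm2 to Chrm3 ratio was 4.08, and 3.29 with a pseudocount of 8 (exact permutation test, p = 0.00714). It was 3.10 to 5.06 when 1 library was left out. With 1 lung library left, its spread was assumed to be that of the other organs. Chrm1 and Chrm3 in bladder and lung are limited by depth.

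Replicate numbers share only a number: deviations of same-numbered libraries from their tissue means correlated at -0.026 to 0.058 across genes, not every library correlating best with its own number. With the replicate block 9040, 6786 and 6496 genes passed in the 3 pairs, against 9395, 7418 and 7157, and 7, 8 and 6 members, as without it.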
